A study of Mus musculus with 14 samples.

Results

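The genes described here encode the proteins of the mitochondrial ribosome (mitoribosome). They were taken as all genes of the deposited hippocampal count table whose symbol begins with Mrpl or Mrps followed by a digit, which gave 43 of 7756 genes, 27 named for the large subunit (Mrpl) and 16 named for the small subunit (Mrps). The GENCODE annotation of the mouse genome lists 78 genes with such symbols, 49 Mrpl and 29 Mrps, and the others, Mrpl10 and Mrps18b among them, were not analysed here. RNA-seq was performed on the hippocampus of wild-type (WT) male C57BL/6J mice that were 8 weeks old at the start of the study. The intermittent hypoxia (IH) group (n = 5), a model of obstructive sleep apnea, breathed oxygen that alternated between 10% and 21% in cycles of 2 min, and the sustained hypoxia (SH) group (n = 5) was kept at 10% oxygen, both during 8 h of each day. Control mice (n = 4) stayed at 21% oxygen, and every group was kept for 28 days. The study's methods state that the control libraries came from a preliminary experiment and do not state this of the IH and SH libraries, so in any comparison against control the oxygen treatment and the experiment cannot be told apart. IH vs. SH was therefore taken as the main comparison. IH and SH mice were exposed in different gas delivery systems, which cannot be told apart from the pattern of hypoxia.

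The mitoribosome translates the few mRNAs that mitochondrial DNA encodes, all of them for subunits of the respiratory chain and ATP synthase. Its rRNAs are transcribed inside the mitochondrion, whereas its proteins are encoded in the nucleus, made in the cytosol and imported. Some of these proteins have a bacterial counterpart and others exist only in mitochondria. Symbols do not always follow structure: in mammals the products of Mrps18a and Mrps30 lie in the large subunit, and the product of Mrps36 is also known as a part of the 2-oxoglutarate dehydrogenase complex. In neurons, much of the energy for firing and synaptic transmission comes from oxidative phosphorylation.

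The total count per library on the deposited genes was between 8352355 and 11777100 in control, between 7568081.5 and 10578073.5 in IH and between 7203660.5 and 10480839 in SH. All 43 members reached a group mean of 40 counts in each of the 3 groups and were among the 7338 genes tested. The authors had already kept only genes whose processed signal differed from control, so a member may have entered the table through the change of 1 group. Counts and medians, in IH vs. SH as well as against control, describe such selected members. A member kept because SH alone was lower than control would also tend to be positive in IH vs. SH. The 8 markers of hippocampal excitatory neurons were present in every library, with a summed normalized count between 118035 and 151481. The 10 markers of choroid plexus, a tissue next to the hippocampus, ran from 4035 to 121854 in control, from 5059 to 73579 in IH and from 4676 to 90185 in SH, and 4 libraries (control 4, IH 1, IH 4 and SH 1) stood above 60000. Results were also computed without these 4 libraries. Of the libraries that stayed, SH 2 (40853) and SH 5 (30378) were still above those of IH (5059 to 11290) and control (4035 to 5429). The reduced set was therefore not balanced in these markers. The 5 red blood cell markers summed to between 1649 and 2304 in IH, below all control libraries (2926 to 3189) and partly overlapping SH (2203 to 3081), and the 3 of 7 microglial markers in the table summed to between 2964 and 3736 in SH, below all control libraries (3753 to 4169). The 5 of 6 oligodendrocyte markers in the table had a median sum of 82789 in control, 101543 in IH and 115440 in SH, with overlap between all groups, and IH 5 stood apart at 182318. The 7 markers of endothelium and mural cells summed to between 7885 and 8893 in SH, above all control libraries (7370 to 8074) in 4 of 5, and to between 7526 and 8200 in IH. The sums of the 4 of 6 interneuron markers in the table overlapped between all groups. So did the counts of Gfap, the only 1 of 7 astrocyte markers in the table. The part of these 6 marker lists in the results was not tested. In whole tissue, fewer cells of a type and less RNA per cell cannot be told apart.

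The members are shown first at the start of their genes, because nuclear-encoded mitochondrial genes are known to share a few promoter motifs. RefSeq promoter windows of 300 bases (GRCm38.p6, 250 bases before to 50 after the start) were matched for 37 of the 43 members, and both strands were searched. The ETS core CCGGAA, which the factor GABP binds, was found in 62.2% of the members, against 25.8% of the genes in the count table and 16.7% of all genes with such a window. The YY1 motif AAGATGG was found in 27.0% of the members, against 7.2% of the table's genes and 7.3% of all. The NRF1 motif GCGCNTGCGC was found in 16.2%, 9.1% and 5.2%, respectively. The Sp1 motif GGGCGG was found in 51.4% of the members, 66.0% of the table's genes and 38.2% of all, and the NF-Y motif CCAAT in 45.9%, 42.9% and 41.1%. The hypoxia response core ACGTG was found in 27.0% of the members, 26.9% of the table's genes and 21.8% of all, and the E-box CACGTG, which contains that core, in 13.5%, 10.7% and 8.1%. A match describes these letters only, and is neither a binding site nor a cause.

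The promoters of Mrpl52 and Mrpl20 are printed because these are 2 of the 3 members with a difference between IH and SH. They cover the 250 bases before the start at chr14:54426659-54426908 and chr4:155802628-155802877 (GRCm38.p6, both on the plus strand), and capitals mark the motif matches.
Mrpl52: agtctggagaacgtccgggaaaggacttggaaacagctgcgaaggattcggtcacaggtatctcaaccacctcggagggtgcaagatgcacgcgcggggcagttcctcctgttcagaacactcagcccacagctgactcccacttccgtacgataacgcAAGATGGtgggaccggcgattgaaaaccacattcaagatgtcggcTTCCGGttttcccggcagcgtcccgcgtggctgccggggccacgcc
Mrpl20: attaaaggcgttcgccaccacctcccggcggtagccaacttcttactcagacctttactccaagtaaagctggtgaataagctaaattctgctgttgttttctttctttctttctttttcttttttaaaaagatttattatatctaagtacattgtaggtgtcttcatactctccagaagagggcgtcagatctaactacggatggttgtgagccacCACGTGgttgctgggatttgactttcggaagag
The Mrpl52 promoter holds a YY1 motif 91 bases and an ETS core (as TTCCGG, on the other strand) 46 bases before the start. The Mrpl20 promoter holds neither in this stretch, and has an E-box with the hypoxia core inside it 33 bases before the start. The third such member, Mrpl54, had no promoter entry. Among the 23 members with an ETS core, the median log2 fold change of IH vs. SH was 0.14 and 19 were positive, and among the 14 without it the median was 0.060 and 8 were positive. For the 10 members with a YY1 motif and the 27 without it, the medians were 0.13 and 0.12. These are descriptions and the differences were not tested.

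IH was then compared with SH. In IH, 3 large-subunit genes were higher, Mrpl54, Mrpl52 and Mrpl20, by between 0.48 and 0.68 on the log2 scale, and no member was lower past the threshold. Thus 3 of 43 members passed the test (edgeR's quasi-likelihood test, Benjamini-Hochberg adjusted p under 0.05 over 7338 genes), where 2.37% of all genes tested passed it and 1.47% passed it as higher. At an unadjusted p under 0.05, 13 members were higher and 1, Mrpl53, was lower, where 15.8% of all genes were past this limit and 8.60% were past it as higher. The log2 fold change was positive in 32 of 43 members and in 48.9% of all genes tested. Every IH library lay above every SH library in 6 members (Mrpl20, Mrpl32, Mrpl33, Mrpl52, Mrpl54 and Mrps7), against 2.63% of all genes, and below every SH library in 0 members, against 1.83%.

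Mrpl54 encodes a mitochondria-specific protein of the large subunit and lies on chromosome 10 from 81097082 to 81102768 on the minus strand (GRCm39), with a coding sequence of 405 bases. Its normalized count was 274, 291, 301, 274 and 317 in the 5 IH libraries, 207, 194, 171, 137 and 196 in the 5 SH libraries, and 331, 324, 377 and 295 in the 4 control libraries. Every IH library was above every SH library, while IH and control overlapped. The log2 fold change of IH vs. SH was 0.68 (SE 0.113, adjusted p = 0.00741, edgeR). The exons of Mrpl54 share 4250 bases with those of Matk, a kinase gene on the opposite strand whose count was far higher, 4597 ± 279.8 in IH and 4001 ± 261 in SH (mean ± SD, n = 5 each). The libraries were made with a directional kit, but the strand setting of the counting is not given in the sources used here, so reads of these genes might not have been told apart. The log2 fold change of Matk was 0.20 (adjusted p = 0.125, edgeR), smaller than that of Mrpl54.

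Mrpl52 also encodes a mitochondria-specific protein of the large subunit. It lies on chromosome 14 from 54664360 to 54668593 on the plus strand (GRCm39), with a coding sequence of 363 bases. Its normalized count was 256, 324, 359, 276 and 262 in IH, 187, 186, 200.5, 219 and 217 in SH, and 368, 385, 404 and 420.0 in control. The 3 groups did not overlap, with control highest and SH lowest. The log2 fold change of IH vs. SH was 0.55 (SE 0.105, adjusted p = 0.0141, edgeR).

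Mrpl20 has a bacterial counterpart that is needed early in the assembly of the large subunit in bacteria. It lies on chromosome 4 from 155887335 to 155894435 on the plus strand (GRCm39), with a coding sequence of 447 bases. Its normalized count was 592, 515, 549, 666 and 522 in IH, 400.1, 368, 411, 391 and 473 in SH, and 603, 704, 663 and 592 in control. All IH libraries were above all SH libraries, and IH overlapped control. The log2 fold change of IH vs. SH was 0.48 (SE 0.0914, adjusted p = 0.0142, edgeR).

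The calls of Mrpl52 and Mrpl20 rested in part on the libraries used. Without the 4 libraries rich in choroid plexus markers, only Mrpl54 passed among the members and 18 genes passed in all, and the log2 fold change was 0.61 for Mrpl52 (adjusted p = 0.0889, edgeR) and 0.36 for Mrpl20 (adjusted p = 0.146, edgeR). In a fit that left out the control libraries, Mrpl52 had an adjusted p of 0.0584 (edgeR) at an unchanged 0.55 on the log2 scale.

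**Figure D1:**
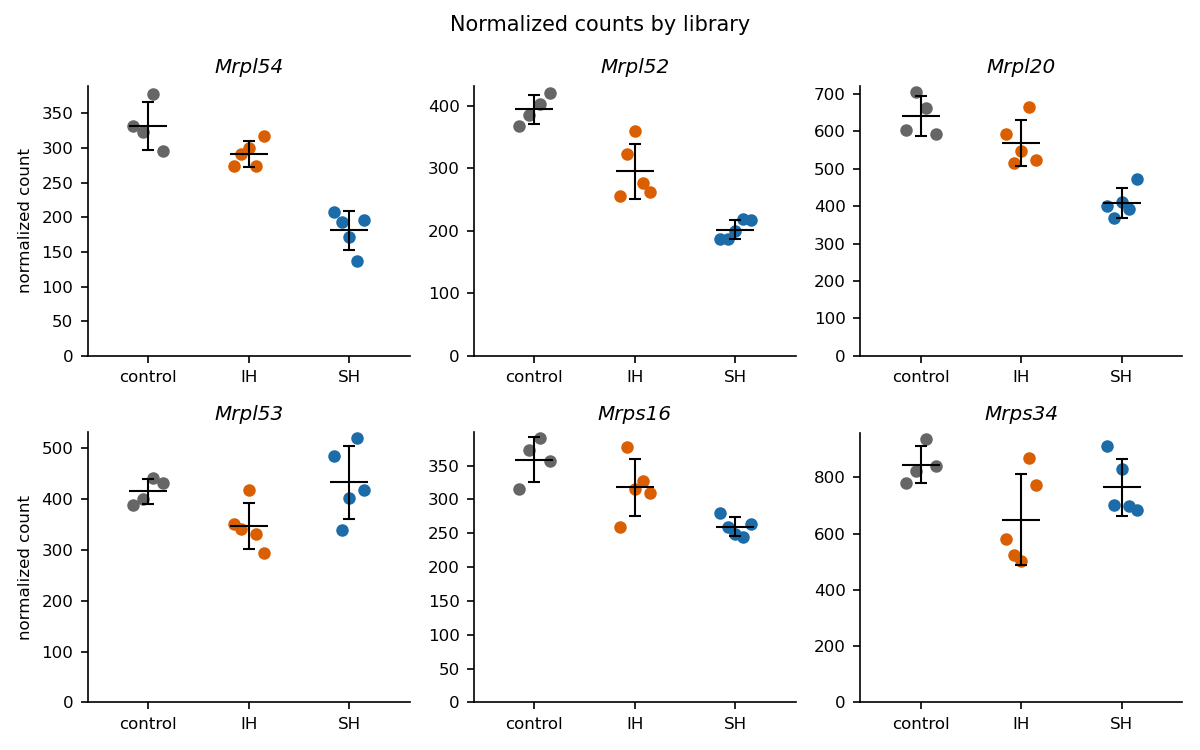
Normalized counts (y axis, from 0) of 6 mitochondrial ribosomal protein genes in each library of the control (n = 4), IH (n = 5) and SH (n = 5) groups; points are libraries, and the horizontal mark and bars are the mean ± SD. In Mrpl54, Mrpl52 and Mrpl20 every SH library lies below every IH and control library, whereas Mrpl53, Mrps16 and Mrps34 overlap between IH and SH.

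None of the other large-subunit genes passed edgeR's test with TMM scaling in IH vs. SH, but Mrpl40 passed by DESeq2 (log2 fold change 0.37, adjusted p = 0.0421) and Mrpl33 with length and GC content offsets (0.24, adjusted p = 0.0397, edgeR). Mrpl40, which lies in the segment corresponding to the human 22q11.2 deletion, came closest, with a normalized count of 336 ± 34.8 in IH and 260 ± 31.0 in SH (mean ± SD, n = 5 each), a log2 fold change of 0.37 and an adjusted p of 0.0811 (edgeR). Its libraries ran from 292 to 378 in IH and from 230 to 311 in SH, and overlapped. Mrpl23, whose product stands at the exit of the peptide tunnel, had a log2 fold change of 0.25 (SE 0.0796) with 368 to 460 counts in IH and 328 to 372 in SH. Mrpl33 had a log2 fold change of 0.22 (SE 0.0712), and its IH libraries (421 to 489) were all above its SH libraries (365 to 397). Mrpl22, whose product lines the peptide tunnel, had a log2 fold change of 0.39 with a larger SE of 0.141.

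At the other end was Mrpl53, named here after its values were seen. Its normalized count was 350, 341, 419, 331 and 295 in IH and 485, 339, 402, 520 and 418 in SH, and 389 to 441 in control. The groups overlapped, and the log2 fold change of IH vs. SH was -0.32 (SE 0.116, adjusted p = 0.179, edgeR). Mrpl12, which encodes the stalk protein that recruits translation factors, had 767 ± 99.5 in IH and 769 ± 65.7 in SH (mean ± SD, n = 5 each), a log2 fold change of -0.0051 with a 95% interval from -0.19 to 0.18. The direction of this value turned in several of the alternatives and is not given one here. Mrpl58, a release factor built into the large subunit that rescues stalled ribosomes, had a log2 fold change of -0.067 (SE 0.0778).

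In the small subunit, 0 of 16 genes passed the adjusted test by edgeR, against 2.37% of all genes tested. At an unadjusted p under 0.05, 4 were higher in IH and 0 lower, where 8.60% of all genes were higher. DESeq2 also called 0 of them. These 4 genes were Mrps16, Mrps28, Mrps12 and Mrps7, with log2 fold changes of 0.29, 0.50, 0.24 and 0.23 and adjusted p-values of 0.152, 0.164, 0.179 and 0.204 (edgeR). Mrps12, whose product lies at the decoding centre, was measured at 524, 589, 580, 456 and 470.0 in IH and 439, 447, 457, 467 and 408 in SH. All but 1 of the IH libraries were above the highest SH library. Mrps16 was measured at 259, 377, 315, 327 and 310 in IH and 280, 259, 249, 245 and 263 in SH, and IH 1 fell within the SH range. Mrps7 was measured at 694 to 879 in IH and 583 to 683 in SH, with no overlap. Mrps28 had the lowest counts of the members, 122 ± 29.1 in IH and 86.2 ± 7.78 in SH (mean ± SD, n = 5 each), and its SE of 0.175 was the largest of these genes.

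Of the variants of one bacterial protein, S18, Mrps18a had a log2 fold change of 0.14 (SE 0.0774) and Mrps18c of 0.17 (SE 0.0842), and neither passed the test. Exons of Mrps18a and Mrps18c share 2038 and 3197 bases with Rsph9 and Abraxas1 on the opposite strand. Mrps34, a mitochondria-specific protein needed for a stable small subunit, had a log2 fold change of -0.23 (SE 0.141, adjusted p = 0.477, edgeR). Its IH libraries were widely spread, at 581, 523, 502, 867 and 774, against 682 to 910 in SH and 778 to 937 in control. Thus 3 of the 5 IH libraries lay below all SH and control libraries. Mrps34 shares 1110 exon bases on the same strand with Nme3, whose own count was 51.1 ± 31.7 in IH and 54.4 ± 13.9 in SH (mean ± SD, n = 5 each). On the opposite strand it shares 1453 exon bases with Mapk8ip3 and 184 with Eme2, whose counts are not given here.

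**Figure D2:**
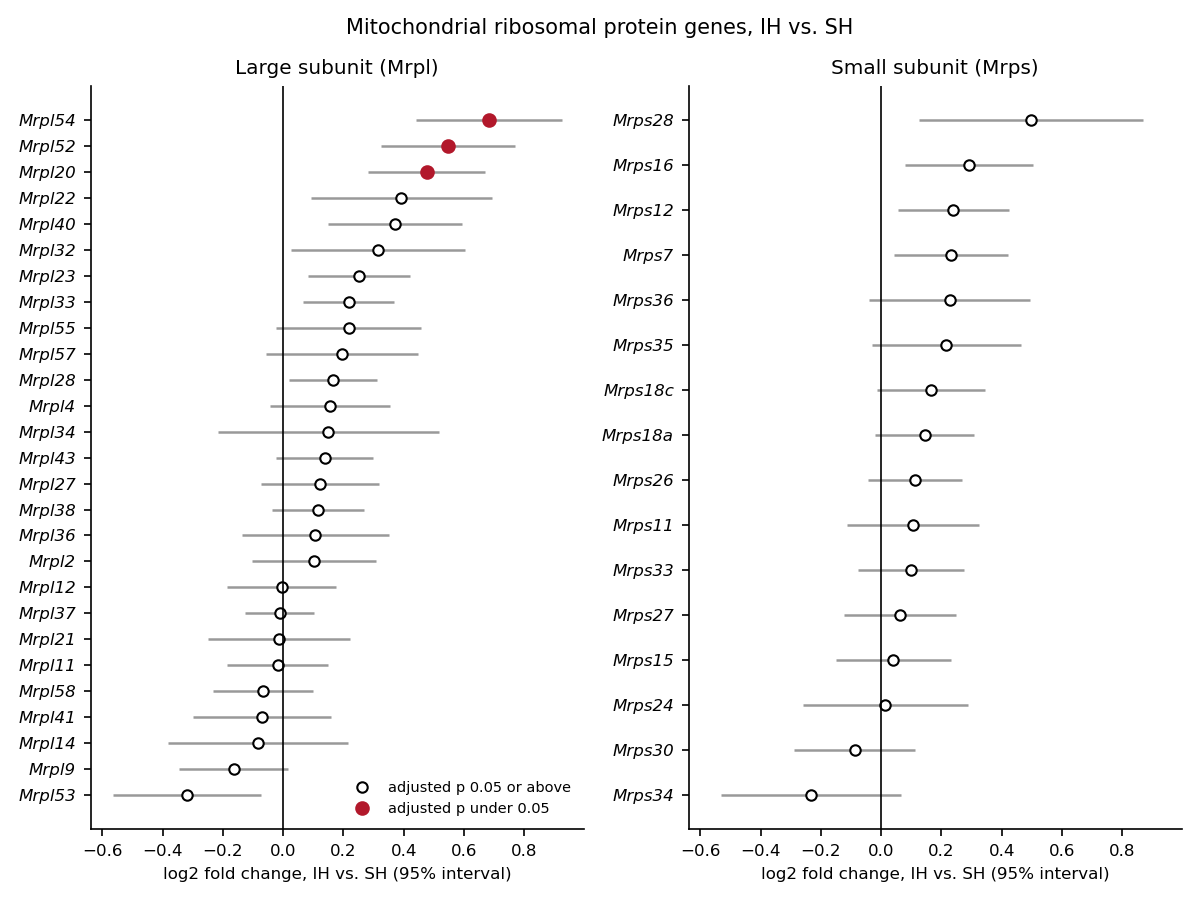
Log2 fold change of IH vs. SH (x axis) for the 27 large-subunit genes (left) and the 16 small-subunit genes (right), with 95% intervals from the edgeR standard error; filled points passed an adjusted p under 0.05. The filled points are Mrpl54, Mrpl52 and Mrpl20, at 0.68, 0.55 and 0.48, and 32 of the 43 points lie above 0.

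The medians of both subunits lay above 0 in IH vs. SH, at similar values. The median log2 fold change was 0.14 over the 27 large-subunit genes, of which 18 were positive, and 0.13 over the 16 small-subunit genes, of which 14 were positive, while the median over all genes tested was -0.0039. The quartiles of the large-subunit genes lay between -0.013 and 0.23 and those of the small-subunit genes between 0.057 and 0.23, against -0.11 and 0.12 for all genes. When Mrps18a and Mrps30 were counted in the large subunit and Mrps36 in neither, following structure, the medians were 0.14 over 29 genes and 0.11 over 13 genes. When each library was left out in turn, the median ran from 0.11 to 0.18 over the large subunit and from 0.11 to 0.17 over the small subunit. Since reads of the same libraries enter every gene, members are not replicates, and no test was made over them.

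**Figure D3:**
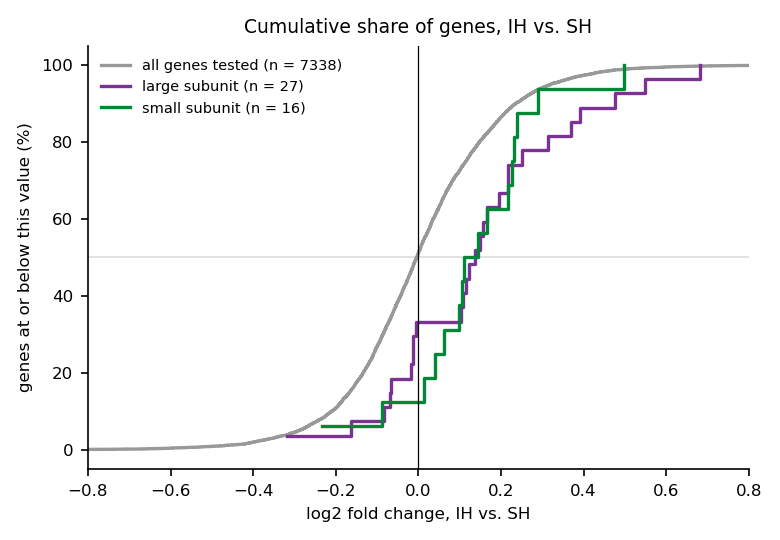
Cumulative share of genes (y axis, percent) at or below each log2 fold change of IH vs. SH (x axis) for all 7338 genes tested (grey), the 27 large-subunit genes (purple) and the 16 small-subunit genes (green). Both subunit curves cross 50% near 0.13 to the right of the grey curve, whose tails run beyond the drawn axis.

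The replicate spread was shown by the median over each subunit in each library, as the log2 deviation of a gene from its mean over the 14 libraries. For the small subunit this median was -0.017, 0.061, 0.11, -0.0075 and -0.041 in the IH libraries and -0.098, -0.14, -0.12, -0.10 and -0.12 in the SH libraries. The IH and SH libraries did not overlap. For the large subunit it was -0.066, 0.0046, 0.17, 0.031 and -0.068 in IH and -0.038, -0.18, -0.046, -0.13 and -0.13 in SH, and the lowest IH libraries fell among the SH libraries. The control libraries ran from 0.054 to 0.16 for the large subunit and from -0.026 to 0.13 for the small subunit, where control 4, the library with the most choroid plexus RNA, was the lowest. IH 3 was the highest IH library in both subunits, and IH 5, the library with the highest oligodendrocyte marker sum, was the lowest. As a share of each library's total, Mrpl genes took 1402 to 1629 CPM in IH, 1313 to 1438 in SH and 1538 to 1612 in control, and Mrps genes took 857 to 947, 792 to 865 and 894 to 974, respectively.

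**Figure D4:**
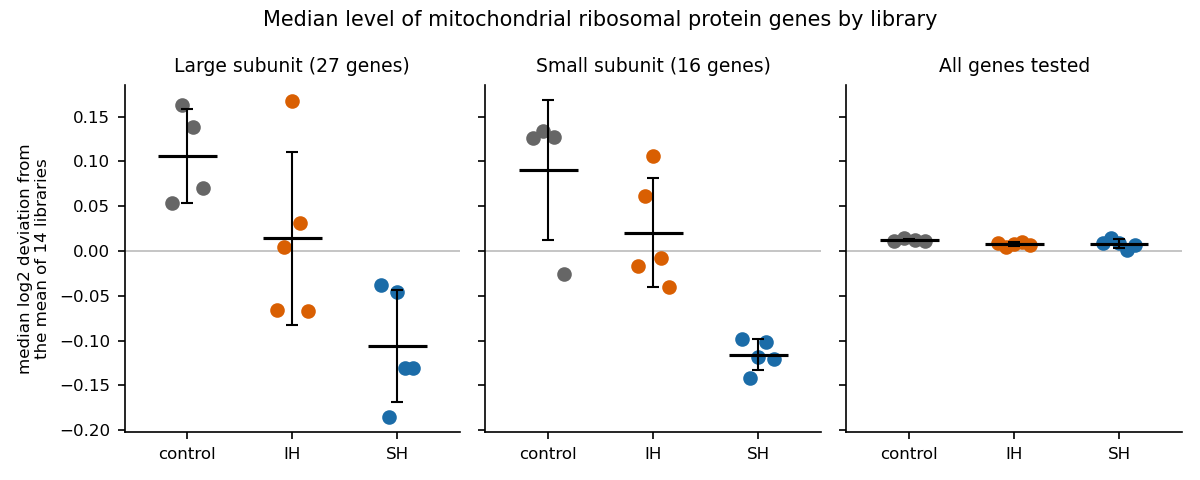
Median log2 deviation from the mean of the 14 libraries (y axis) over the large-subunit genes, the small-subunit genes and all genes tested, by group; each point is a library, and the line and bars are the mean ± SD (control n = 4, IH n = 5, SH n = 5). Small-subunit medians of SH lie from -0.14 to -0.098, below the IH range of -0.041 to 0.11, and the medians over all genes stay within 0.0005 and 0.014.

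Each hypoxia group was also compared with control, with the limit on these libraries given above. SH was lower in 12 members, 7 of the large and 5 of the small subunit, and 0 were higher. IH was lower in 1, Mrpl52. The share of all genes tested that passed as lower was 10.5% for the SH comparison and 4.85% for the IH comparison, the share that passed as higher was 10.2% and 6.08%, and the share that passed in either direction was 20.6% and 10.9%, respectively. These 2 comparisons share the control libraries, so their values stand side by side and not as independent support.

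In SH vs. control, Mrpl52 fell by 0.97 on the log2 scale (SE 0.109, adjusted p = 0.000155, edgeR), Mrpl54 fell by 0.87 (SE 0.119, adjusted p = 0.000471) and Mrpl20 fell by 0.65 (SE 0.096, adjusted p = 0.000724). In the same comparison Matk, which overlaps Mrpl54, fell by 0.31 (adjusted p = 0.00618, edgeR). The other large-subunit genes that passed were Mrpl23 (-0.44), Mrpl40 (-0.41), Mrpl28 (-0.33) and Mrpl38 (-0.31), and the small-subunit genes were Mrps28 (-0.54), Mrps16 (-0.47), Mrps26 (-0.33), Mrps18a (-0.28) and Mrps12 (-0.28). With length and GC content offsets, 8 members passed, of which 6 were among these 12 (Mrpl20, Mrpl52, Mrpl54, Mrps16, Mrps26 and Mrps28), whereas Mrpl23 (-0.16), Mrpl40 (-0.20), Mrpl28 (-0.11), Mrpl38 (-0.068), Mrps18a (-0.091) and Mrps12 (-0.023) did not (adjusted p from 0.231 to 0.914, edgeR). With these offsets and the replicate number as a block, 6 members passed, while the genes called in all fell from 1514 to 455. Mrps12 and Mrps18a did not pass either without the 4 libraries rich in choroid plexus markers (adjusted p = 0.116 and 0.119, edgeR). Mrps12 passed in 10 of 26 alternative settings and lost its call without control 1, control 2, control 4, IH 1 or any 1 SH library (adjusted p up to 0.122, edgeR), with the replicate number as a block (0.0892) and with the choroid plexus marker level as a covariate (0.0615). Mrps28 passed in 9 of the 25 settings that gave it an adjusted p, and lost its call without control 1, control 2, control 3, IH 2, IH 4, IH 5 or any 1 SH library (adjusted p up to 0.131, edgeR), with the block (0.0699) and with the covariate (0.089). Mrps18a lost its call without control 1, control 4, SH 2 or SH 3 (adjusted p from 0.0547 to 0.0762, edgeR), and Mrpl40 without control 3 (adjusted p = 0.0521, edgeR). Mrps26 was measured at 1122, 1114, 1031 and 1023 in control and at 937, 777, 815, 937 and 786 in SH, with no overlap. Mrps16 was measured at 315, 373, 391 and 357 in control, all above its 5 SH libraries (245 to 280). Every SH library lay below every control library in 10 members, against 10.6% of all genes. Every SH library lay above every control library in 1 member, Mrpl9, against 643 of the 7338 genes tested. The log2 fold change of Mrpl9 was 0.21 (adjusted p = 0.102, edgeR). The median was -0.19 over the large subunit and -0.18 over the small subunit, against 0.0035 over all genes, and without the libraries rich in choroid plexus markers it was -0.26 and -0.23. With length and GC content offsets it was -0.11 and -0.15. Leaving out each library in turn gave -0.24 to -0.17 over the large subunit and -0.24 to -0.15 over the small subunit.

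In IH vs. control, Mrpl52 fell by 0.42 (SE 0.109, adjusted p = 0.0238, edgeR), and no other member passed. At an unadjusted p under 0.05, 11 of the 43 members were lower and 0 higher, where 14.4% of all genes were lower and 15.4% higher. Every IH library lay below every control library in 4 members (Mrpl14, Mrpl23, Mrpl52 and Mrps26), against 7.48% of all genes. Every IH library lay above every control library in 0 members, against 562 of the 7338 genes tested. Mrpl37, a mitochondria-specific protein of the large subunit, was measured at 903 ± 39.8 in IH and 992 ± 28.0 in control (SD, n = 5 and 4), and its log2 fold change was -0.14 (adjusted p = 0.125, edgeR), or -0.037 with length and GC content offsets (adjusted p = 0.74, edgeR). Mrps34 had the largest negative value of the small subunit, -0.38 (adjusted p = 0.104, edgeR), and Mrps30 had -0.22 (adjusted p = 0.156, edgeR). The value of Mrps34 was -0.50 without IH 4, where it passed (adjusted p = 0.0331, edgeR), and -0.14 with length and GC content offsets (adjusted p = 0.661, edgeR). The median was -0.079 over the large subunit and -0.053 over the small subunit, against -0.015 over all genes. Leaving out each library in turn gave -0.12 (without control 2) to -0.070 over the large subunit. Over the small subunit it gave -0.12 without control 4 or without IH 3 and -0.027 without IH 5.

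The call of Mrpl52 in IH vs. control was lost when any 1 of control 2, control 3, control 4, IH 1, IH 4 or IH 5 was left out, with log2 fold changes from -0.43 to -0.37 (adjusted p from 0.0518 to 0.0671, edgeR). Without the libraries rich in choroid plexus markers its value was -0.29 (adjusted p = 0.226, edgeR), and with offsets for coding length and GC content it was -0.33 (adjusted p = 0.0553, edgeR) and the large-subunit median was 0.0053. Without IH 3, 3 members passed, and 979 genes passed in all, against 802 in the main fit.

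**Figure D5:**
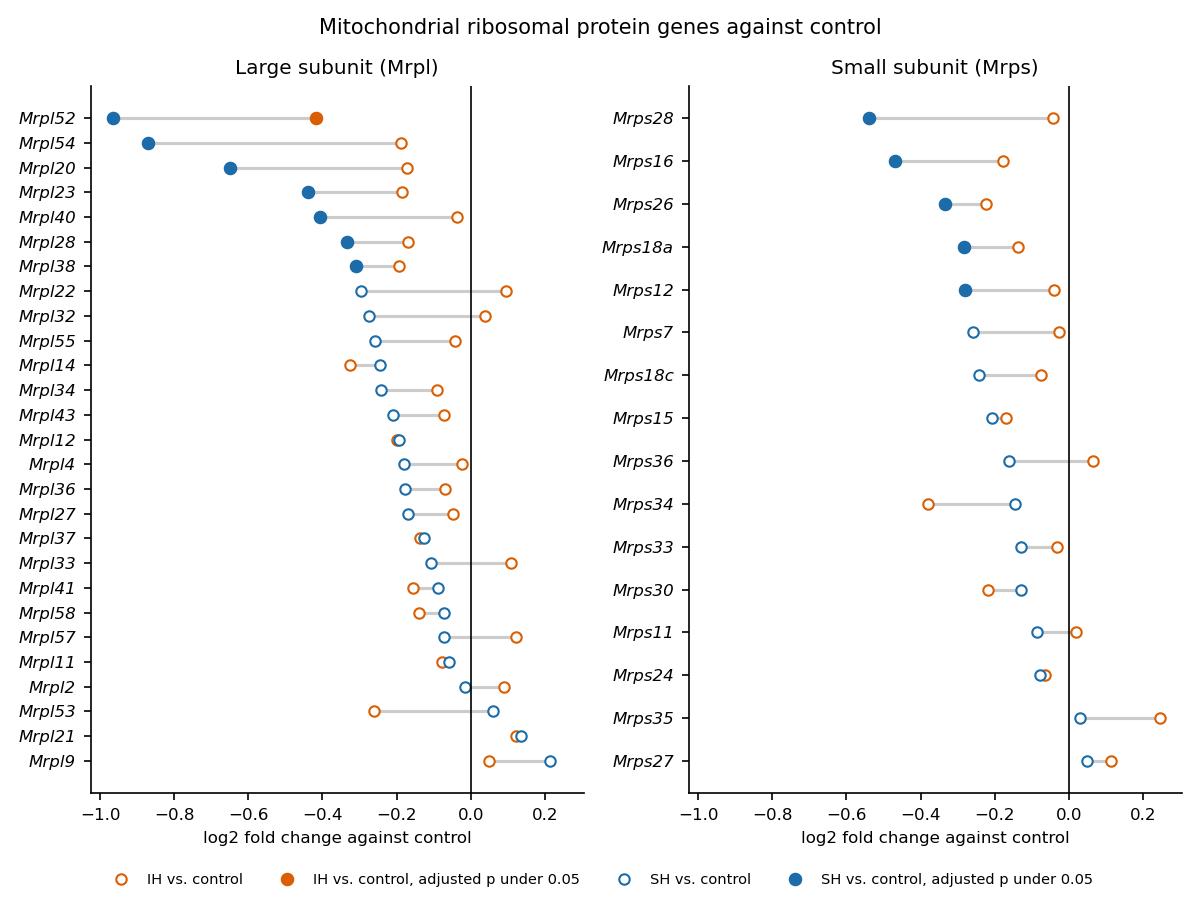
Log2 fold change against control (x axis) of IH (orange) and SH (blue) for each large-subunit (left) and small-subunit (right) gene, ordered by SH; filled points passed an adjusted p under 0.05 (edgeR), and both groups share the 4 control libraries. The 12 filled SH points lie between -0.97 and -0.28, and the only filled IH point is Mrpl52 at -0.42.

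Apart from the low counts of Mrps28 given above, the levels of the members were compared with each other only per length, in the control libraries. Per kilobase of the annotated canonical transcript, the highest mean normalized counts were 903 in Mrps34 and 862 in Mrps18a in the small subunit and 839 in Mrpl20 and 712 in Mrpl27 in the large subunit. The lowest were 43.2 in Mrps28 and 80.2 in Mrps35, and 81.5 in Mrpl54 and 95.4 in Mrpl55. Per kilobase of coding sequence, Mrps28 and Mrps35 remained low, at 224 and 351, whereas Mrpl54 and Mrpl55 had 819 and 958. The annotated transcripts of these last genes are long beyond the coding sequence, so the order depends on which length is used. The coding sequences of the members ran from 276 bases in Mrpl34 to 1326 bases in Mrps30.

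Genes around the mitoribosome were described from lists. Of 5 mitoribosomal proteins with other symbols, 3 were in the table, and 0 of 3 were called in IH vs. SH, against 2.37% of all genes tested. Gadd45gip1 and Aurkaip1 had log2 fold changes of 0.21 and 0.21 in IH vs. SH. Both fell in SH vs. control, by 0.47 and 0.39 (adjusted p = 0.006 and 0.00618, edgeR), where 10.5% of all genes tested were lower. The third, Ptcd3, had 0.10 in IH vs. SH. Of 28 mitoribosome assembly factors, 20 were tested, with a median of 0.13 in IH vs. SH and 0 called, against 2.37% of all genes tested. In SH vs. control 3 of the 20 were lower, against 10.5% of all genes tested: Malsu1, which keeps the subunits from joining early (-0.37), the rRNA methyltransferase Mrm1 (-0.33) and Afg3l2, a protease of the inner membrane that matures Mrpl32 (-0.20). In IH vs. control 1 of the 20 was lower, again Afg3l2 (-0.21), against 4.85% of all genes tested. In that comparison 1 was higher, the GTPase Mtg2 (0.31), against 6.08%.

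Of 13 mitochondrial translation factors, 4 were tested and 0 passed the test in IH vs. SH, against 2.37% of all genes tested. Tufm, the elongation factor that brings tRNA to the mitoribosome, was measured at 1026 ± 66.9 in IH, 890 ± 42.1 in SH and 1045 ± 12.9 in control (SD). Its log2 fold change of IH vs. SH was 0.21 (SE 0.0589, adjusted p = 0.0875, edgeR). Every IH library of Tufm (965 to 1134) lay above every SH library (828 to 935). Tufm was lower in SH than in control (log2 fold change -0.23, adjusted p = 0.018, edgeR), where 10.5% of all genes tested were lower. Of 17 mitochondrial aminoacyl-tRNA synthetases, 9 were tested, and their log2 fold changes in IH vs. SH ran from -0.57 to 0.27, with 3 positive and a median of -0.075. The only one called, where 2.37% of all genes tested were called, was Lars2, the leucyl enzyme, measured at 3355 ± 389 in IH, 4980 ± 918 in SH and 3291 ± 161 in control (SD). On the log2 scale Lars2 differed by -0.57 in IH vs. SH (adjusted p = 0.0129, edgeR), by 0.60 in SH vs. control (adjusted p = 0.00331, edgeR) and, short of the threshold, by 0.028 in IH vs. control (adjusted p = 0.886, edgeR). Of 22 regulators of mitochondrial transcription and biogenesis, 10 were tested and 1 was called in IH vs. SH, again against 2.37% of all genes, Slirp, whose product protects mitochondrial mRNAs. Its count was 264, 249, 333, 217 and 251 in IH and 388, 529, 335, 332 and 341 in SH, the log2 fold change was -0.55 (adjusted p = 0.0476, edgeR), and 1 IH library reached the SH range. Slirp in control was at 357 ± 28.5 (SD), from which IH differed by -0.44 (adjusted p = 0.0609, edgeR) and SH by 0.11 (adjusted p = 0.625, edgeR). Against control, 3 of the 10 were higher in IH, where 6.08% of all genes tested were higher, which were Gabpa (0.56), the DNA-binding subunit of GABP, its partner Gabpb1 (0.39) and Ssbp1 (0.38), and Gabpa was also higher in SH (0.30). The 13 mRNAs that mitochondrial DNA encodes were not analysed here.

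The counts of some members are uncertain for reasons of sequence. For 11 members, among them Mrpl12, Mrpl22, Mrpl23, Mrpl27 and Mrps18c, the genome held at least 1 further copy of the transcript with at least 90% identity over at least 50% of its length, at which the counting could split reads. Neither Mrpl20, Mrpl52 nor Mrpl54 had such a copy. Exons of 34 of the 43 members share bases with another gene, in 32 on the opposite strand and in 5 on the same strand.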

How the data were processed

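Hippocampal RNA-seq libraries of 14 mice were analysed (control n = 4, IH n = 5, SH n = 5). The labels number them as replicates and do not say more of their origin, so p-values measure the spread between these libraries. Per the labels, libraries were made with a poly(A) selection and a directional kit. According to the submitters' processing notes the authors used bcl2fastq 2.19, FastQC, fastp 0.23.4, HISAT2 2.2.1, StringTie 2.2.1 and the build GRCm39. The deposited values are estimated counts per gene made by StringTie, without normalization, and 10 genes with values that were not whole were rounded. The authors kept 7756 protein-coding genes above a count of 40 whose processed signal differed from control. Because this selection drew on the group labels, adjusted p-values and shares of genes apply to the selected genes alone. Depth set the precision at 7203660.5 to 11777100 per library.

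The 7338 genes that reached a mean of 40 counts in each group were tested with edgeR 4.0.16 in R 4.3.3 (TMM scaling, quasi-likelihood test, 1 fit of the 3 groups, no covariate), and p-values were adjusted by Benjamini-Hochberg. The script was checked on simulated data. SE was derived from the fold change and the F statistic. Normalized counts are scaled to the mean TMM-adjusted library size. Library medians used log2 of normalized counts with 0.5 added. Members and lists were chosen with earlier results of these data known. Named genes are those called in IH vs. SH, the 6 per subunit with the smallest p there, the 3 per subunit with the smallest p against control, the 2 highest and 2 lowest per length, some named for their role, and list genes called in IH vs. SH. Others were added after their values were seen (Mrpl53, Mrpl22 and those called against control). Locations are from GENCODE M39, with 7707 symbols matched directly, 16 through synonyms and 33 not matched. Copies were sought with minimap2. Replicate numbers were not treated as pairs, and no libraries were duplicates (chi-square per degree of freedom at least 8.96 over 26 pairs).

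The alternatives were DESeq2 1.42.0, other scalings, no filter or filterByExpr, fits restricted to the pair of groups under comparison, a block for the replicate number, length and GC content offsets, a choroid plexus covariate and each library left out. Offsets with coding length, the fit without libraries rich in choroid plexus markers and the subunits by structure were added after seeing the data.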

Additional observations from a re-analysis of the deposited data

Results flagged for a closer look

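Of 75 groups of 4 or 5 libraries checked, 5 held a library far from the others, at a limit set so that chance flags about 1 in 20 groups. In the control group, Mrpl37 was at 950 in control 2 and between 1005 and 1007 in the others, and Mrpl58 was at 650 in control 1 and between 728 and 739 in the others. In the SH group, Mrps30 was at 356 in SH 4 and between 448 and 462 in the others, and Mrps35 was at 410.0 in SH 5 and between 320 and 338 in the others. The small-subunit median was -0.026 in control 4 and between 0.13 and 0.13 in the other control libraries. Control 4 also had the highest summed level of choroid plexus markers, 121854, and the part of this in the low median was not tested.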

How the results depend on the processing

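In IH vs. SH, Mrpl54, Mrpl52 and Mrpl20 were called whichever library was left out, and the count of members called stayed at 3. It was 2 when only the 2 groups were fitted, 4 by DESeq2 (with Mrpl40) and with length and GC content offsets (with Mrpl33), and 1 without the libraries rich in choroid plexus markers. In that last fit 18 genes were called in all, against 174 in the main fit. In IH vs. control the count (1, with 802 genes called in all) was 0 with length and GC content offsets with the replicate block (361 genes called). It was also 0 with coding length and GC content offsets (451 genes called) and without the libraries rich in choroid plexus markers (139 genes called), and 0 to 3 when 1 library was left out. In SH vs. control the count (12, with 1514 genes called in all) was 6 with length and GC content offsets with the replicate block (455 genes called). It was 7 with coding length offsets (513 genes called) and 9 to 13 when 1 library was left out. The Mrpl median of IH vs. control turned to 0.0026 with the length and GC content offsets and block and to 0.0053 with coding length offsets. That of SH vs. control (-0.19) was -0.11 with length and GC content offsets, with or without the block (-0.113 and -0.114), -0.115 with coding length offsets, and -0.26 without the libraries rich in choroid plexus markers, and the Mrps median was -0.12 with offsets and block. The sign of 4 named genes also turned, of which Mrps12 in SH vs. control was a called member: Mrpl12 in IH vs. SH (0.0056 to 0.044 without IH 1, IH 4, IH 5, SH 1 or SH 4, -0.085 at the lowest without IH 3, and 0.090 without the choroid plexus rich libraries), Mrpl37 in IH vs. SH (0.0082 to 0.011 without IH 1 or SH 5, -0.035 at the lowest without IH 3, and 0.0059 likewise), Mrpl54 in IH vs. control (from -0.19 to 0.023 with coding length offsets) and Mrps12 in SH vs. control (from -0.28 to 0.0083 with offsets and block). The cause was not tested. Replicate numbers did not pair the libraries: the correlation of same-numbered libraries was -0.30 to 0.46 over 13 pairs and above 0.1 in 6, and 5 of 14 libraries correlated best with their own number. With the replicate block, 3, 1 and 10 members were called in IH vs. SH, IH vs. control and SH vs. control. The intervals shown carry the precision that the counts allow, and a p that missed the threshold does not show that groups were alike.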
